A study of Mus musculus with 20 samples.

Results

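The clustered protocadherins are cell-surface adhesion proteins of the cadherin superfamily, encoded in mice by 3 neighbouring gene clusters called alpha, beta and gamma. Each neuron uses a subset of the genes, and the proteins bind like to like, so that the subset acts as an identity label with which branches of the same neuron recognise each other. In the alpha and gamma clusters a variable first exon with its own promoter, which encodes the extracellular part, is spliced to constant exons that all genes of the cluster share. Genes of the beta cluster carry no constant exons. The genes at the 3′ end of the alpha and gamma clusters, named C-type (Pcdhac1, Pcdhac2, Pcdhgc3, Pcdhgc4 and Pcdhgc5), are used broadly, whereas promoters of the other, alternate genes are chosen at random in a neuron, with CTCF, cohesin and DNA methylation taking part in the choice.

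Members were taken by gene symbol: Pcdha or Pcdhac, Pcdhb, or Pcdhga, Pcdhgb or Pcdhgc followed by a number. This gave 58 of 24411 genes in the expression table, 14 of the alpha, 22 of the beta and 22 of the gamma cluster. RNA came from cultures of cerebellar granule neurons of mice, which are small glutamatergic cells of the cerebellar cortex. Neurons were infected on day in vitro (DIV) 1, treated with AraC, which kills dividing cells, on DIV 2 and harvested on DIV 7. There were 4 groups of 5 libraries, numbered 1 to 5 in each. The active rescue group received a short hairpin RNA (shRNA) against mouse Kdm6b together with the active enzymatic domain of human KDM6B, a histone demethylase that removes a repressive methyl mark. The dead rescue group received the same shRNA with a dead form of that domain. The shKdm6b group received the shRNA without a domain. No source used here gives the infection of the control cultures or the strain, age and sex of the mice. The rescue domain is a fragment of the human protein rather than full-length KDM6B. Whether each library stands for its own culture or animal is not stated, and p-values therefore cover the spread among these libraries alone, which may be technical.

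Library totals ran from 14200745 to 21179300 counts, and the members held 0.0911 to 0.154% of them. Levels are given as CPM, counts scaled to a common library size, after TMM scaling of library sizes. Kdm6b, the targeted gene, had 290, 312, 266, 73.2 and 119 CPM in active rescue libraries 1 to 5, and 272, 250, 192, 54.9 and 109 CPM in dead rescue libraries. It had 99.4, 112, 89.4, 37.9 and 76.4 CPM in shKdm6b libraries, against 141, 171, 139, 81.2 and 187 CPM in controls. The level was lower in shKdm6b in 5 of 5 same-numbered pairs (log2 fold change -0.88 ± 0.21 (SE), edgeR adjusted p = 0.0231 with the library number as a block and 1 without it). With the block but without the libraries numbered 4 it missed the threshold, at -0.84 and an edgeR adjusted p of 0.0567. Reads of the human domain may be counted as Kdm6b in the rescue groups. Of 15 granule neuron markers none was at 0 in all libraries. Their summed level was 2222 to 3615 CPM in the libraries numbered 4 and 5513 to 9784 CPM in the other 16, while 14 markers of astrocytes and Bergmann glia summed to 13470 to 17280 CPM in the libraries numbered 4 and to 2605 to 8396 CPM in the other 16. Key results that rest on the libraries numbered 4, which stood apart in these markers, are given with and without them. Other numbers differed in further markers. Those of meningeal fibroblasts and vessels summed to 11530 to 13800 CPM in number 3 and 19130 to 24920 CPM in number 5. In numbers 1, 2 and 4 they summed to 5166 to 6469, 3830 to 4354 and 5735 to 7773 CPM. In bulk RNA, fewer cells of a type and less RNA per cell cannot be told apart.

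All members lie on the plus strand of chromosome 18. In the GRCm38 annotation (GENCODE) the alpha genes span 36930184 to 37187661, the beta genes 37264938 to 37524479 and the gamma genes 37661793 to 37841873. Every alpha and gamma gene has 4 exons, of which the first is its own. Exonic sequence shared with another member made up 48.6 to 54.9% of an alpha transcript (median 53.5%) and 13.4 to 45.5% of a gamma transcript (median 44.8%). Each beta gene has 1 exon, and none of its sequence overlaps another member except for 9.67% of Pcdhb21 and 6.89% of Pcdhb22, which overlap each other. Fractional estimates, which arise when reads are divided between transcripts, made up 97.1% of the 280 values of alpha genes and 100% of the 440 values of gamma genes, against 7.05% of the 440 values of beta genes and 8.51% over all genes. Counts of a single alpha or gamma gene therefore rest in part on how reads from shared exons were divided, while the sum over a cluster is less affected. An additional entry, Pcdha7-g, lies outside the naming rule and took reads of the same locus as Pcdha7: in shKdm6b library 4 Pcdha7 was at 0 and Pcdha7-g at 4.23 CPM, and in control library 4 Pcdha7 was at 7.97 CPM and Pcdha7-g at 0. Values of Pcdha7 alone are uncertain for that reason.

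The gamma cluster dominated the family in these cultures. It held 71.9 to 86.3% of all member CPM in a library (median 76.3%). The share averaged 83.3% in the libraries numbered 4, low in granule neuron and high in astrocyte markers, and 75.4% in the other 16. Which cells of the cultures held this RNA was not tested. Summed over its genes, the gamma cluster averaged 1041 ± 57.7 CPM in active rescue, 985 ± 72.7 CPM in dead rescue, 1002 ± 165 CPM in shKdm6b and 915.5 ± 72.2 CPM in control libraries (SD, n = 5 each). The alpha cluster averaged 172 ± 42.8 CPM in active rescue, 164 ± 46.9 CPM in dead rescue, 180 ± 71.2 CPM in shKdm6b and 142 ± 50.7 CPM in control libraries. The beta cluster averaged 140 ± 19.7 CPM in active rescue, 131 ± 32.3 CPM in dead rescue, 136 ± 40.4 CPM in shKdm6b and 141 ± 43.9 CPM in control libraries. The means of the alpha and beta sums differed between groups by less than the SD of the control group. For gamma, the means of active rescue and shKdm6b lay above that of control by more than the control SD.

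**Figure D1:**
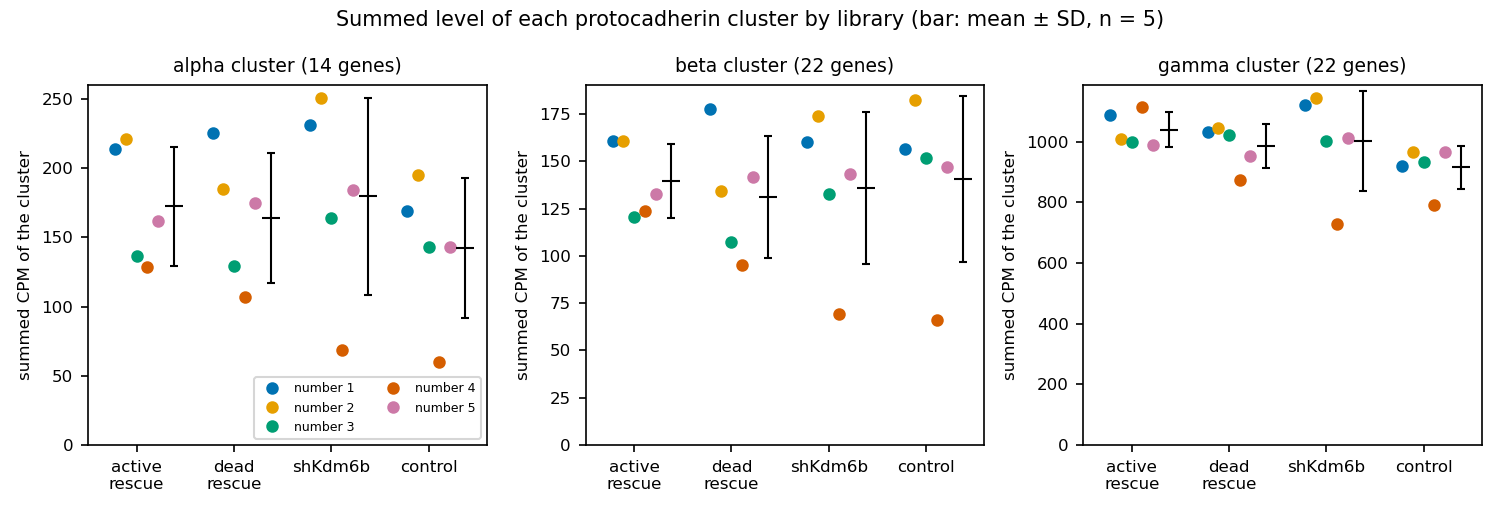
Summed CPM of the alpha, beta and gamma clusters in each of 20 libraries, by group, coloured by library number, with the mean and SD of each group (n = 5) at the right of its points. The libraries numbered 4 of shKdm6b (68.5, 69.4 and 729 CPM in alpha, beta and gamma) and control (60.0, 66.2 and 791 CPM) are the lowest in every panel.

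Among all members, Pcdhgc3 stood highest. This C-type gene is reported in mice to promote dendrite branching of cortical neurons and is also used by glial cells. It had 476, 383, 485, 595 and 516 CPM in active rescue libraries 1 to 5 and 433, 443, 536, 435 and 490 CPM in dead rescue libraries. It had 467, 479, 491, 328 and 509 CPM in shKdm6b libraries, against 431, 412, 477, 412 and 493 CPM in controls. All 4 groups overlapped, and shKdm6b library 4 was the lowest of the 20. Pcdhgc3 alone made up 37.99 to 53.4% of gamma counts. Divided by the length of the longest annotated transcript, its mean level was 99.1 CPM per kb, against 1.68 to 11.6 CPM per kb for the 19 alternate gamma genes.

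The other C-type genes were lower and differed widely. Pcdhgc4, which mice need for survival of some inhibitory neurons, averaged 6.81 CPM per kb. Pcdhgc5 averaged 3.70 CPM per kb. In the alpha cluster Pcdhac2, needed in mice for the spread of serotonin axons, was the highest at 7.80 CPM per kb and 27.9% of alpha counts, while Pcdhac1 averaged 0.481 CPM per kb, a level near the bottom of the cluster. The C-type genes of this culture thus ranged from rank 12 of 14 in the alpha cluster to rank 1 of 22 in the gamma cluster by level per length.

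Alternate genes were spread over a wide range, and those nearer the 3′ end tended to be higher. In the alpha cluster Pcdha12, the last alternate gene, averaged 6.01 CPM per kb and Pcdha10 2.72 CPM per kb, against 0.398 CPM per kb for the first gene, Pcdha1. In the beta cluster Pcdhb20 (4.22 CPM per kb) was highest per length, followed by Pcdhb17 (3.15), whereas Pcdhb22 ranked 3 of 22 by CPM and 5 of 22 per length (2.06 CPM per kb). Pcdhb1, the first gene, averaged 0.112 CPM and 2.05 counts, and was the sole member that did not pass the filter on low counts. In the gamma cluster the highest alternate genes were Pcdhgb6 (11.6 CPM per kb) and Pcdhgb7 (9.81 CPM per kb), both in the 3′ part. Spearman's rho between order along the cluster and mean CPM per kb was 0.608 over the 12 alternate alpha genes, 0.501 over the 22 beta genes and 0.444 over the 19 alternate gamma genes. These are descriptions across genes of the same 20 libraries, and neighbouring alpha and gamma genes share the constant exons.

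**Figure D2:**
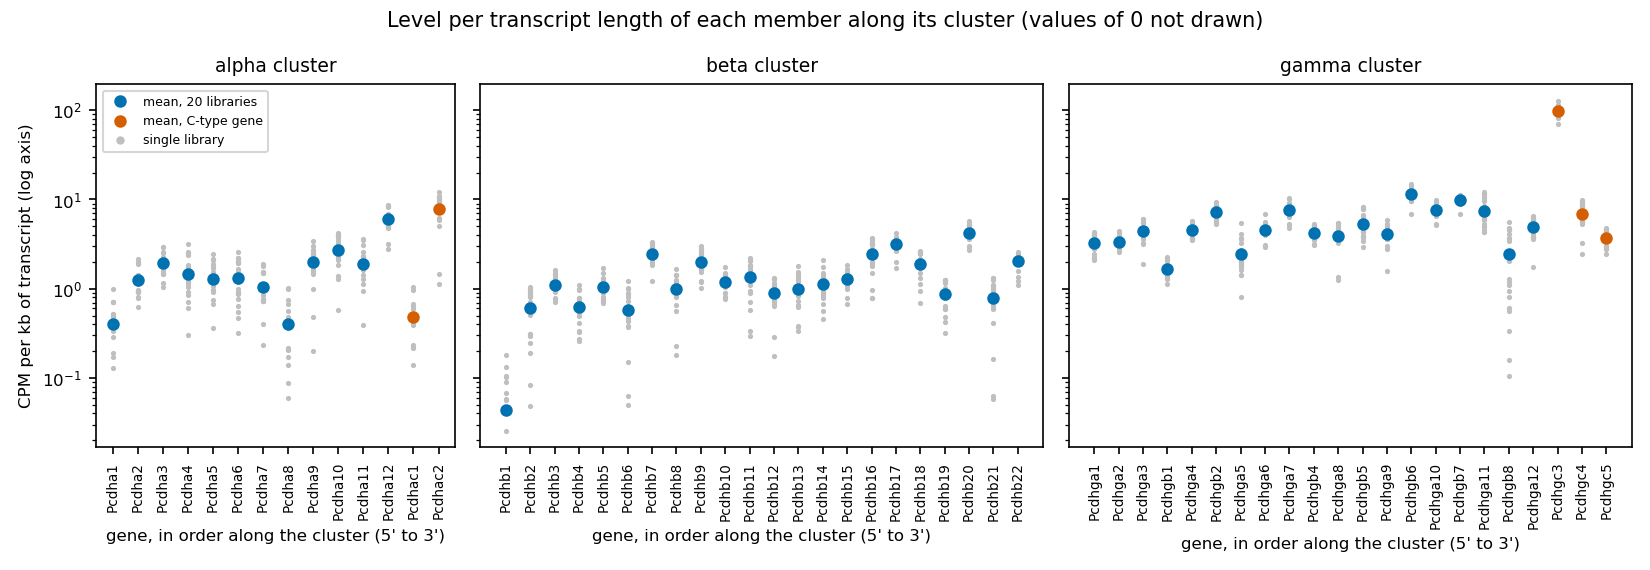
Mean CPM per kb of transcript over 20 libraries (large points, C-type genes in orange, log axis) and single libraries (grey) for each member in its order along the alpha, beta and gamma cluster. Pcdhgc3 at 99.1 CPM per kb lies above every other member, and Pcdhb1 at 0.0434 CPM per kb lies lowest.

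In shKdm6b and control, the libraries numbered 4 held less RNA of most members of all 3 clusters than the other libraries. The alpha cluster was at 129 CPM in active rescue library 4, 107 in dead rescue library 4, 68.5 in shKdm6b library 4 and 60.0 in control library 4, against 129.5 to 250 CPM in the 16 libraries with other numbers. Of 22 beta genes, 20 in shKdm6b library 4 and 20 in control library 4 (90.9% each) were below all other libraries of their group, against 39.4 and 38.3% of the 15284 genes tested. The active rescue library 4 had 5 such beta genes (22.7%), and the dead rescue library 4 had 12 (54.5%), against 27.6 and 32.1% of all genes tested. For alpha genes the share was 71.4% in dead rescue, shKdm6b and control (10 of 14 each) and 35.7% in active rescue (5). For gamma genes it was 27.3% in active rescue (6 of 22), 40.9% in dead rescue (9), 72.7% in shKdm6b (16) and 63.6% in control (14). Among C-type genes, Pcdhac2 had 48.9, 61.2, 35.2, 34.5 and 54.2 CPM in active rescue libraries 1 to 5 and 64.1, 43.3, 36.6, 29.5 and 56.9 CPM in dead rescue libraries. It had 53.3, 71.0, 46.0, 6.67 and 56.5 CPM in shKdm6b libraries, against 58.8, 63.6, 43.9, 8.56 and 45.1 CPM in controls. Both rescue libraries numbered 4 thus held over 3 times the Pcdhac2 of the shKdm6b and control libraries with that number. The summed granule neuron markers of these libraries were 3276 CPM in active rescue, 3615 in dead rescue, 2222 in shKdm6b and 3133 CPM in control, and their part in these levels was not tested.

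**Figure D3:**
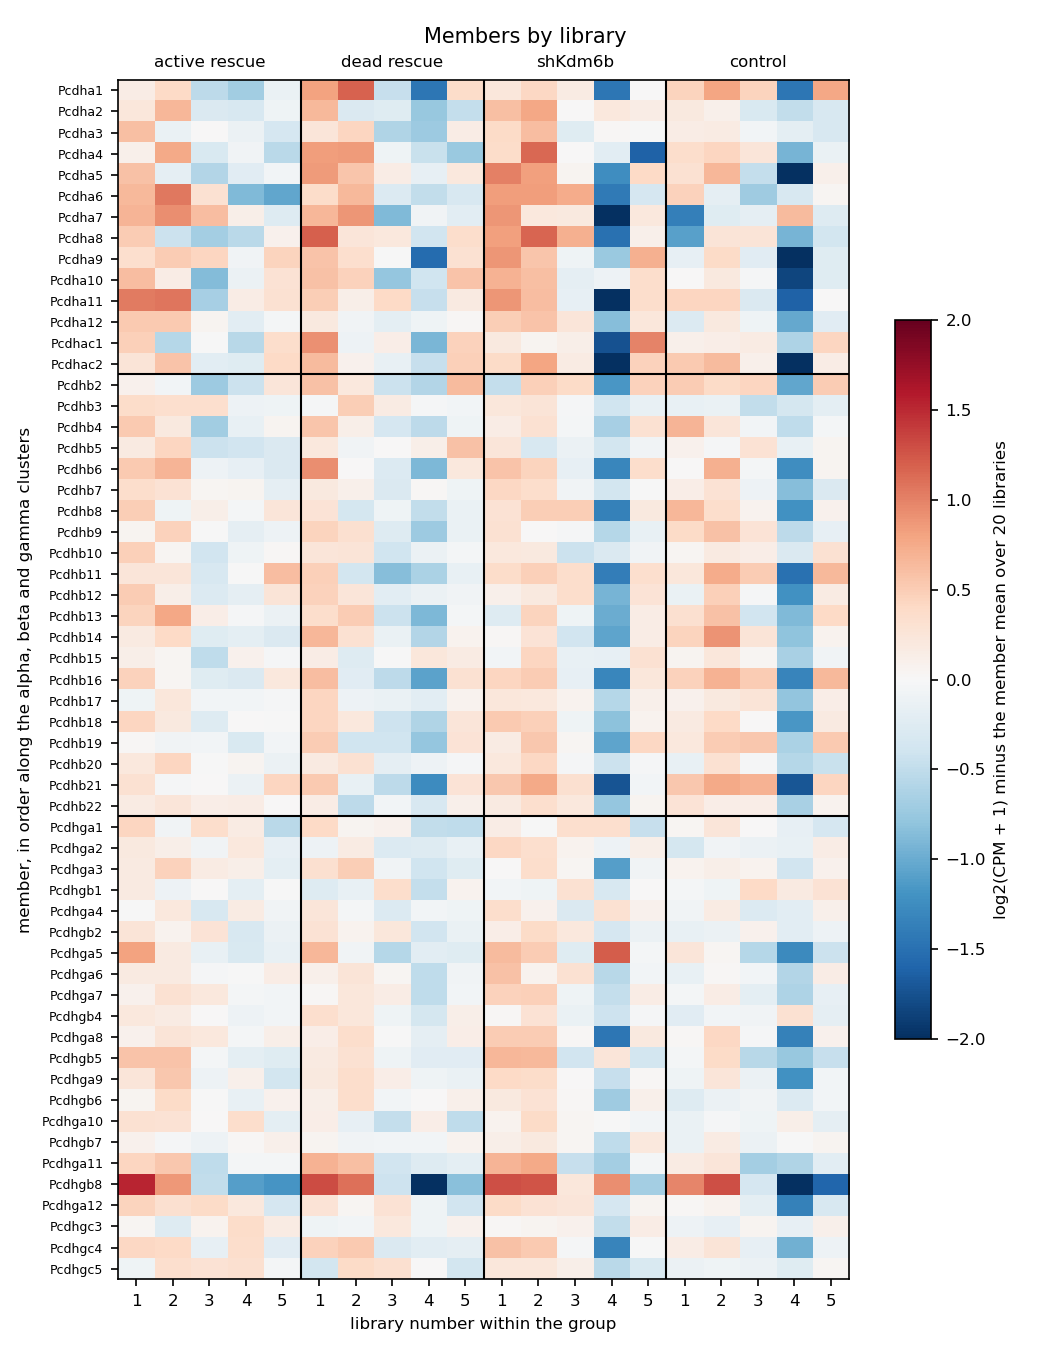
Level of the 57 members that passed the filter in 20 libraries, as log2(CPM + 1) minus the member's mean over all libraries (colour), with libraries 1 to 5 of each group in columns and genes in order along the clusters in rows. The columns numbered 4 of shKdm6b and control are blue across most alpha and beta genes, and Pcdhgb8 is red in the libraries numbered 1 and 2 of all 4 groups.

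Knockdown of Kdm6b was compared with control first. Higher values in shKdm6b prevailed among alpha and gamma genes but not among beta genes, and 1 gene passed the test, in the paired fit. That gene was Pcdhgb5, an alternate gamma gene. It had 36.3, 36.2, 23.5, 20.9 and 20.2 CPM in active rescue libraries 1 to 5 and 27.3, 30.1, 22.7, 20.4 and 20.4 CPM in dead rescue libraries. It had 38.9, 38.4, 18.2, 28.5 and 18.4 CPM in shKdm6b libraries, against 23.5, 31.5, 16.04, 13.8 and 17.2 CPM in controls. The groups overlapped, yet shKdm6b was the higher in 5 of 5 same-numbered pairs. With the library number as a block (same-numbered libraries deviated together in all 4 groups), Pcdhgb5 rose in shKdm6b by 0.48 ± 0.13 on the log2 scale (SE, a 1.39-fold change, edgeR adjusted p = 0.04997). Without the block the log2 fold change was 0.48 ± 0.27 and the adjusted p was 1.

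The call on Pcdhgb5 stood at the threshold. In the paired fit its adjusted p was 0.156 without the 4 libraries numbered 4 (log2 fold change 0.31), 0.0615 with another scaling of library sizes and 0.0535 without the filter on low counts, while DESeq2 with the block gave 0.0205. Leaving out 1 library at a time, the adjusted p passed 0.05 without shKdm6b library 3, shKdm6b library 5 or control library 2, and missed it without any of the other 7, with a range of 0.0244 to 0.196.

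Of 57 members tested, 1 (1.75%) was called in the paired fit, against 4.14% of all 15284 genes tested, and none in edgeR's fit without the block, against 0.00654% of all genes. Each call is 1.75% of the 57 members, so the gap to the background amounts to few genes. At an unadjusted p under 0.05, 12 members (21.1%) passed in the paired fit against 14.9% of all genes, and 1 member passed without the block, against 3.12% of all genes. DESeq2 called 0 members without the block, against 0.428% of all genes, and 3 of 57 with it (5.26%), Pcdha2, Pcdhga5 and Pcdhgb5, against 6.3% of all genes. Which members were called moved with the samples used: the paired fit without the libraries numbered 4 called Pcdha12, Pcdha9 and Pcdhga11 (5.26% of members, against 6.5% of all genes), and the paired fit on the 2 groups alone called Pcdha12, Pcdha2, Pcdhga12 and Pcdhga7 (7.02% of members, against 12.1% of all genes). In each of these fits the share of members called was below that of all genes. With numbers 1 to 3 and the block it was above, at 3.51% against 2.91%. Gaps of a few calls are not read as a result about the members.

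By cluster, 11 of 14 alpha genes and 19 of 22 gamma genes had a log2 fold change above 0 in the paired fit, against 10 of 21 beta genes and 52.1% of all genes. The median log2 fold change was 0.26 for alpha, -0.06 for beta and 0.16 for gamma genes, against 0.01 for all genes. Without the block the medians were 0.40 for alpha, -0.10 for beta and 0.18 for gamma genes, against 0.01 for all genes. In the paired fit without the libraries numbered 4 they were 0.396 for alpha, -0.0429 for beta and 0.205 for gamma genes. Of the 12 members with an unadjusted p under 0.05, 11 were higher in shKdm6b, where 7.61% of all genes were so, and all 11 were alternate genes of the alpha cluster (4) or the gamma cluster (7); no C-type gene was among them. The remaining member, Pcdhb14, was lower, as were 7.33% of all genes. Alpha and gamma genes share exons, and all members were measured in the same libraries. These counts of genes are therefore descriptions and not independent observations.

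**Figure D4:**
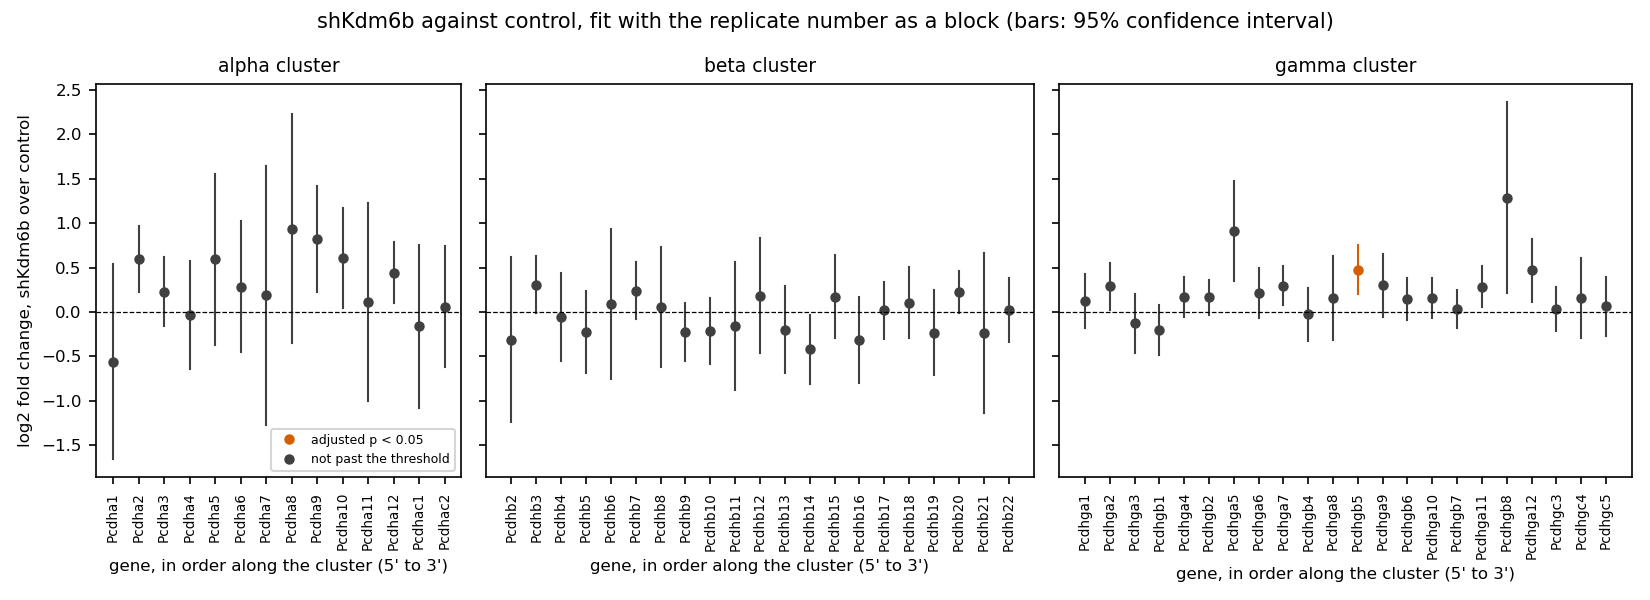
Log2 fold change of shKdm6b over control in the paired fit, with the 95% confidence interval, for 57 members in their order along the clusters. Pcdhgb5 (0.48, orange) is past the threshold, most alpha and gamma genes lie above 0, and beta genes lie on both sides of it.

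The largest log2 fold changes belonged to low or variable members and did not pass the test. Pcdhgb8, which RefSeq lists as a transcribed pseudogene, had the largest paired log2 fold change (1.29 ± 0.51 (SE), edgeR adjusted p = 0.216). It had 15.7, 9.61, 3.10, 1.71 and 1.55 CPM in active rescue libraries 1 to 5 and 13.2, 11.5, 3.34, 0.443 and 2.26 CPM in dead rescue libraries. It had 13.1, 12.9, 5.74, 10.1 and 2.60 CPM in shKdm6b libraries, against 10.4, 13.1, 3.598, 0.295 and 0.934 CPM in controls. Libraries numbered 1 and 2 were high in every group, and shKdm6b library 4 was the exception among those numbered 4. The paired log2 fold change of Pcdhgb8 was 0.45 without the libraries numbered 4, and with all libraries but no block it was 0.64. The share of counts on the ribosomal RNA gene Rn45s followed the library number too, at 2.43 to 7.25% in numbers 1 to 3 and 0.206 to 0.612% in numbers 4 and 5, and its part in the level of Pcdhgb8 was not tested.

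Pcdha8 had the next largest value, with 3.94, 5.26, 3.58, 0 and 2.00 CPM in shKdm6b libraries 1 to 5, against 0.314, 2.35, 2.36, 0.472 and 1.17 CPM in controls (paired log2 fold change 0.94 ± 0.61 (SE), edgeR adjusted p = 0.539). Values overlapped, and shKdm6b was higher in 4 of 5 pairs. On the lower side, Pcdha1 had 2.19, 2.66, 2.06, 0 and 1.76 CPM in shKdm6b libraries, against 2.73, 3.74, 2.71, 0 and 3.68 CPM in controls. Without the libraries numbered 4, in which both were at 0, every shKdm6b value lay below every control value. The paired log2 fold change missed the threshold with all libraries (-0.56 ± 0.52 (SE), edgeR adjusted p = 0.715) and without those numbered 4 (-0.59, edgeR adjusted p = 0.284). Pcdhb14 had 9.41, 11.4, 6.92, 3.96 and 10.4 CPM in shKdm6b libraries, against 13.0, 18.1, 11.3, 4.90 and 9.75 CPM in controls. The value was lower in shKdm6b in 4 of 5 pairs (paired log2 fold change -0.42 ± 0.18 (SE), edgeR adjusted p = 0.283).

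Some alternate genes chosen here after their values were seen came close to the threshold. Pcdha2 had 10.2, 11.6, 6.43, 7.59 and 7.21 CPM in shKdm6b libraries 1 to 5, against 7.49, 6.94, 5.01, 4.25 and 4.90 CPM in controls, higher in 5 of 5 pairs (paired log2 fold change 0.60 ± 0.18 (SE), edgeR adjusted p = 0.0783). Pcdhga5 had 16.7, 15.3, 8.64, 25.6 and 10.1 CPM in shKdm6b libraries, against 12.5, 10.8, 6.72, 3.72 and 7.47 CPM in controls (paired log2 fold change 0.91 ± 0.27 (SE), edgeR adjusted p = 0.0691). Its widest gap was in the pair numbered 4, and without the libraries numbered 4 its paired log2 fold change was 0.41 (edgeR adjusted p = 0.0615).

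Summed over the cluster, which is less open to the division of shared reads, alpha protocadherins were higher in shKdm6b than in control in 5 of 5 same-numbered pairs. The pairs differed by 0.19 to 0.45 on the log2 scale, with a mean of 0.31 ± 0.12 (SD over 5 pairs, 1.24-fold), and of 0.34 without the pair numbered 4. Gamma protocadherins were higher in 4 of 5 pairs, with a mean of 0.12 ± 0.16 and of 0.18 without the pair numbered 4, in which shKdm6b was lower by 0.12. Beta protocadherins were higher in 2 of 5 pairs, with a mean of -0.04 ± 0.10. No test was run on these sums. Beside them, the summed level of 12 markers of meningeal fibroblasts and vessels was lower in shKdm6b in 5 of 5 pairs, by 0.09 to 0.41 on the log2 scale. In the groups it ran from 3902 to 19130 CPM in shKdm6b and from 4143 to 24920 CPM in controls, led by the collagen genes Col3a1, Col1a1 and Col1a2, while the endothelial gene Cldn5 was at a median of 0.119 CPM over all libraries. Its part in the protocadherin sums was not tested.

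The alternate genes were also summed apart from the C-type genes. The 12 alternate alpha genes together were higher in shKdm6b in 5 of 5 pairs (mean log2 difference 0.42 ± 0.18, SD) and the 19 alternate gamma genes likewise (0.21 ± 0.13). Without the pair numbered 4 these means were 0.44 and 0.24. Among the alternate gamma genes, those named A were higher in 5 of 5 pairs (0.26 ± 0.12) and those named B in 4 of 5 (0.15 ± 0.20). The gap between A and B rested on the pair numbered 4 (0.306 for A and -0.147 for B). Without that pair the means were 0.245 for A and 0.223 for B. The share of alpha counts on Pcdhac2 was 24.0% in shKdm6b and 28.8% in controls on average and was lower in shKdm6b in 5 of 5 pairs, by 0.827 to 11.7 percentage points. The share of gamma counts on Pcdhgc3 was 45.6% in shKdm6b and 48.7% in controls and was lower in shKdm6b in 5 of 5 pairs, by 0.785 to 6.96 percentage points. A share within a cluster shows an unequal difference and not which genes changed. The C-type genes themselves had paired log2 fold changes of 0.03 for Pcdhgc3 (95% confidence interval -0.21 to 0.28), 0.16 for Pcdhgc4 (-0.29 to 0.61), 0.06 for Pcdhgc5 (-0.28 to 0.40) and 0.06 for Pcdhac2 (-0.62 to 0.74). Pcdhac1 was at -0.16 (-1.08 to 0.76) in the paired fit, at 0.15 in that fit without the libraries numbered 4 and at 0.09 with all libraries but no block.

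**Figure D5:**
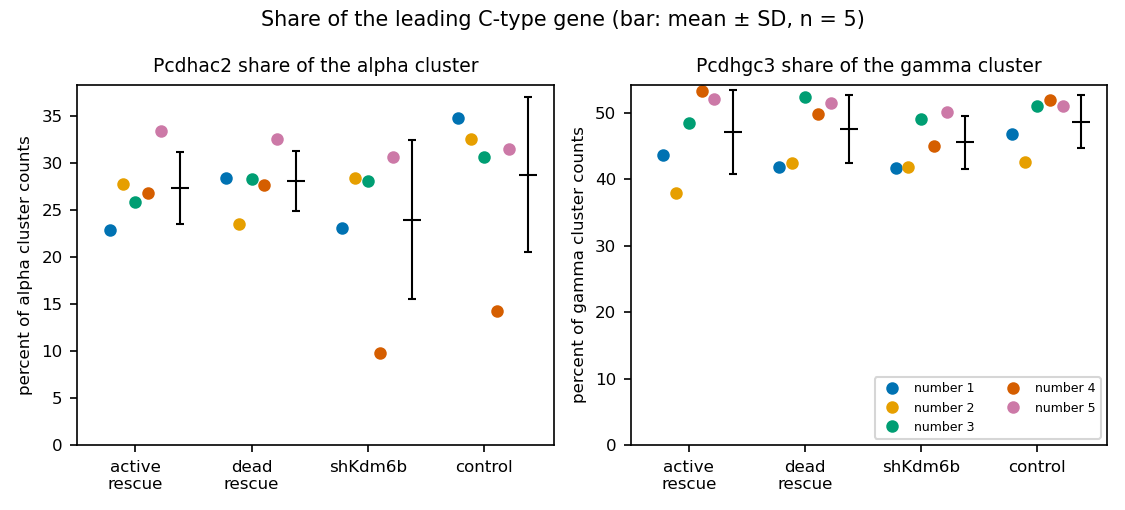
Percent of alpha cluster counts on Pcdhac2 (left) and of gamma cluster counts on Pcdhgc3 (right) in each library by group, coloured by library number, with the mean and SD of each group (n = 5). Shares in shKdm6b average 24.0 and 45.6%, against 28.8 and 48.7% in control, and the pair numbered 4 of shKdm6b and control is low for Pcdhac2.

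The 3 members of each cluster with the highest CPM included these alternate genes. Pcdha12 had 44.0, 46.6, 36.6, 16.7 and 36.2 CPM in shKdm6b libraries 1 to 5, against 25.4, 35.4, 28.9, 14.7 and 26.3 CPM in controls. It was higher in shKdm6b in 5 of 5 pairs, with a paired log2 fold change of 0.44 ± 0.16 (SE) and an edgeR adjusted p of 0.173, which became 0.0207 without the libraries numbered 4. Pcdha10 had 22.4, 20.99, 11.8, 12.5 and 17.5 CPM in shKdm6b libraries, against 13.5, 15.6, 13.3, 3.07 and 11.2 CPM in controls, higher in 4 of 5 pairs (paired log2 fold change 0.60 ± 0.27 (SE), edgeR adjusted p = 0.286, and 0.36 and 0.400 without the libraries numbered 4). Pcdhgb6 averaged 54.4 ± 13.1 CPM in shKdm6b and 48.2 ± 3.33 CPM in controls (SD, n = 5 each), and Pcdhgb7 averaged 47.0 ± 8.73 CPM in shKdm6b and 45.7 ± 3.98 CPM in controls. Their paired log2 fold changes were 0.15 and 0.03, with edgeR adjusted p of 0.623 and 0.948, and without the libraries numbered 4 they were 0.26 and 0.13, with edgeR adjusted p of 0.0738 and 0.365. In the beta cluster Pcdhb20 averaged 15.4 ± 3.52 CPM in shKdm6b and 13.2 ± 3.50 CPM in controls, Pcdhb17 averaged 14.8 ± 3.13 CPM in shKdm6b and 14.7 ± 3.83 CPM in controls, and Pcdhb22 averaged 13.8 ± 3.75 CPM in shKdm6b and 13.5 ± 3.12 CPM in controls. None of these 3 beta genes passed, with paired log2 fold changes of 0.22, 0.02 and 0.02 and edgeR adjusted p of 0.384, 0.980 and 0.981.

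The series also asked whether the enzymatic domain restores expression after knockdown, and no member passed the test in either rescue against shKdm6b. In active rescue against shKdm6b, edgeR called 0 of 57 members with and without the block, against 0.00654% of all genes with it, and 1 member passed an unadjusted p of 0.05 in the paired fit, Pcdhb13, at a higher level in active rescue, as did 2.38% of all genes. In dead rescue against shKdm6b, edgeR called 0 members in both fits and 0% of all genes, and 4 members passed an unadjusted p of 0.05 in the paired fit, Pcdha2, Pcdhga2, Pcdhga5 and Pcdhga10, all lower in dead rescue, against 0.674% of all genes. DESeq2 called 0 members in both comparisons, with and without the block, against 0.157% of all genes with the block in active rescue against shKdm6b and 0% otherwise. Pcdhgb5 stood at a paired log2 fold change of -0.04 (95% confidence interval -0.32 to 0.23) in active rescue against shKdm6b and of -0.19 (-0.47 to 0.08) in dead rescue against shKdm6b.

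For several cluster sums the sign of the mean difference rested on the pair numbered 4. The alpha sum was lower in active rescue than in shKdm6b in 4 of 5 pairs and higher by 0.91 on the log2 scale in the pair numbered 4, with a mean of 0.03 ± 0.49 (SD) over all pairs and of -0.19 without that pair. In dead rescue against shKdm6b the alpha sum was likewise lower in 4 of 5 pairs and higher by 0.64 in the pair numbered 4, with a mean of -0.05 ± 0.42, and of -0.22 without that pair. For gamma the means were 0.07 ± 0.31 in active rescue against shKdm6b, and -0.06 without the pair numbered 4, and -0.01 ± 0.16 and -0.08 in dead rescue against shKdm6b. For beta they were 0.09 ± 0.42 and -0.09 in active rescue against shKdm6b, and -0.02 ± 0.34 and -0.14 in dead rescue against shKdm6b.

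Active and dead rescue, which differ in the activity of the domain, were set against each other directly. In edgeR 0 of 57 members passed with or without the block, against 0.00654% of all genes with it, DESeq2 called 0 in both fits, against 0.0196% of all genes with the block and 0% without it, and 1 member, Pcdhga10, had an unadjusted p under 0.05 in the paired fit and was higher in active rescue, as were 1.56% of all genes. Pcdhga10 had 44.2, 43.7, 35.9, 45.6 and 31.0 CPM in active rescue libraries 1 to 5, against 39.1, 31.5, 25.2, 38.9 and 24.7 CPM in dead rescue libraries. The groups overlapped, and active rescue was higher in 5 of 5 pairs (paired log2 fold change 0.34 ± 0.11 (SE), edgeR adjusted p = 0.9996). In the paired fit 43 of 57 members had a log2 fold change above 0, against 54.5% of all genes, and the median was 0.09 against 0.01 for all genes. Members of a cluster are not independent of each other, so this count is a description. The whole alpha, beta and gamma sums were each higher in active rescue in 3 of 5 pairs. Their mean log2 differences were 0.08, 0.11 and 0.08, and 0.04, 0.05 and 0.01 without the pair numbered 4. The alternate gamma genes summed were higher in active rescue in 5 of 5 pairs, by 0.03 to 0.22 on the log2 scale. Their widest difference was in the pair numbered 4, and their mean was 0.09 with it and 0.05 without it. For the most abundant member, Pcdhgc3, the 95% confidence interval of the paired log2 fold change was -0.17 to 0.32, and for Pcdhac2 it was -0.63 to 0.74, so the depth and spread leave room for differences of that size.

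Both rescue groups were also set against control, with the same control libraries as for shKdm6b. In the paired fit of active rescue against control the median log2 fold change was 0.28 for alpha, 0.02 for beta and 0.23 for gamma genes, against 0.02 for all genes. In dead rescue against control it was 0.26, -0.12 and 0.11, against 0.004 for all genes. Median alpha and gamma fold changes above 0 were thus found in both rescue groups as well as in shKdm6b, all against the same control libraries. The alpha sum was higher than in control in 4 of 5 pairs in active rescue (mean log2 difference 0.34, and 0.155 without the pair numbered 4). In dead rescue it was higher in 3 of 5 pairs (0.26 and 0.12). In shKdm6b the alpha sum was higher than in control in 5 of 5 pairs (0.31 and 0.34). Without the pair numbered 4 the mean alpha difference was thus larger in shKdm6b than in either rescue group. The gamma sum was higher in 5 of 5 pairs in active rescue (0.19 and 0.11) and in 4 of 5 in dead rescue (0.11 and 0.098). In active rescue against control edgeR called 0 members in both fits, against 1.96% of all genes with the block, and 8 members passed an unadjusted p of 0.05 in the paired fit, all higher in active rescue, against 7.94% of all genes. In dead rescue against control edgeR called 0 members in both fits, against 1.18% of all genes with the block, and 5 members passed an unadjusted p of 0.05, all higher in dead rescue, against 5.61% of all genes. DESeq2 called 0 members without the block, against 0.202% of all genes in active rescue and 0.111% in dead rescue against control. With it, DESeq2 called Pcdha9, Pcdhb3 and Pcdhga12 (5.26% of members) in active rescue against control, where it called 4.08% of all genes. In dead rescue against control it called 0 members and 2.98% of all genes. Of these, Pcdhb3 had 5.61, 5.45, 5.51, 3.76 and 3.86 CPM in active rescue libraries and 4.05, 6.20, 4.75, 4.05 and 3.92 CPM in dead rescue libraries. It had 5.03, 5.15, 4.03, 2.90 and 3.63 CPM in shKdm6b libraries, against 3.62, 3.69, 2.65, 3.01 and 3.50 CPM in controls. Neither rescue group overlapped control, and shKdm6b did. The paired log2 fold change of Pcdhb3 was 0.54 ± 0.15 (SE, edgeR adjusted p = 0.0886) in active rescue against control, 0.47 ± 0.15 (0.190) in dead rescue against control and 0.31 ± 0.15 (0.367) in shKdm6b against control. These comparisons share the control libraries, and Pcdhb3 was chosen after its values were seen.

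Genes known to govern or carry the function of the clusters were counted as lists. Of 27 measured regulators of protocadherin choice, which include the insulator protein gene Ctcf, cohesin genes such as Rad21 and the DNA methyltransferase gene Dnmt3b, edgeR called 0 in all 6 comparisons in both fits. Of all genes these fits called 0 to 4.14%. In shKdm6b against control 2 of them had an unadjusted p under 0.05 in the paired fit, against 14.9% of all genes, and the median log2 fold change was -0.07. Of 24 genes for partners of protocadherin signalling, such as the kinase gene Ptk2 and genes of the WAVE complex, edgeR also called 0 in all 6 comparisons in both fits, with 4 at an unadjusted p under 0.05 in the paired fit, against 14.9% of all genes, and a median of -0.05 in shKdm6b against control. Without the libraries numbered 4 the paired fit of shKdm6b against control called 1 gene of each list, the cohesin gene Stag2 at a lower level and the kinase gene Prkca at a higher level. In that setting Dnmt3a, Stag2 and Prkcd were called at a lower level in active rescue against control, and Dnmt3a in dead rescue against control. Of all genes, that setting called 6.5% in shKdm6b, 4.6% in active rescue and 2.48% in dead rescue, each against control.

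Protocadherins outside the clusters and related large cadherins made a further list. Of 19 tested, edgeR called 4 in the paired fit of shKdm6b against control, 1 higher and 3 lower, against 4.14% of all genes; without the block it called 0, with 3 at an unadjusted p under 0.05. Pcdh17, a non-clustered protocadherin gene, had 38.03, 43.8, 19.05, 3.82 and 13.7 CPM in shKdm6b libraries 1 to 5, against 11.1, 17.7, 9.73, 1.65 and 4.32 CPM in controls, and rose by 1.37 ± 0.32 on the log2 scale (SE, edgeR adjusted p = 0.0209). It was higher in shKdm6b in 5 of 5 pairs. Cdh23, which in hair cells forms part of the tip link, fell to 0.766, 1.27, 0.442, 0.368 and 0.242 CPM in shKdm6b libraries, against 2.57, 2.75, 2.48, 0.768 and 3.09 CPM in controls (paired log2 fold change -1.96 ± 0.41 (SE), edgeR adjusted p = 0.0102). Its mean level was low, at 0.619 CPM in shKdm6b and 2.33 CPM in controls, so the fold change rests on few reads.

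Fat3, a giant cadherin gene that shapes dendrites of retinal amacrine cells in mice, had 15.8, 16.4, 5.11, 5.34 and 9.27 CPM in shKdm6b libraries, against 29.4, 28.4, 14.8, 5.85 and 35.4 CPM in controls. It fell by 1.11 ± 0.30 on the log2 scale (SE, edgeR adjusted p = 0.0427). Pcdh19, an X-linked protocadherin gene, had 6.62, 10.4, 16.2, 2.53 and 21.6 CPM in shKdm6b libraries, against 11.5, 14.3, 37.0, 6.14 and 39.2 CPM in controls, and fell by 0.90 ± 0.19 (SE, edgeR adjusted p = 0.0123). Cdh23, Fat3 and Pcdh19 were lower in shKdm6b in 5 of 5 pairs. In every group Pcdh19 was highest in libraries 3 and 5, which also held the most meningeal fibroblast and vessel markers. The sum of those markers was lower in shKdm6b in 5 of 5 pairs too, and its part in the level of Pcdh19 was not tested. Pcdh17, Cdh23, Fat3 and Pcdh19 also passed without the libraries numbered 4. In active rescue against control 1 of the 19 was called in the paired fit, Pcdh17 at a higher level (log2 fold change 1.41 ± 0.33 (SE), edgeR adjusted p = 0.0353), and in the 4 other comparisons none was called in either fit. The paired fit called 1.96% of all genes in active rescue against control and 0 to 1.18% in the 4 other comparisons. Without the libraries numbered 4 the log2 fold change of Pcdh17 in active rescue against control was 0.96 (edgeR adjusted p = 0.00312). That setting also called Pcdh1 at a higher level in shKdm6b against control, Pcdh19 at a lower level in active rescue against control and Pcdh17 at a higher level in dead rescue against control. It called 6.5, 4.6 and 2.48% of all genes in these comparisons.

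The precision of these values differed between clusters. The median biological coefficient of variation in the paired fit was 0.362 for alpha, 0.218 for beta and 0.149 for gamma genes, against 0.158 for all genes tested. Mean counts per library ran from 39.5 (Pcdha1) to 855 (Pcdhac2) among alpha genes, from 2.05 (Pcdhb1) to 282 (Pcdhb20) among beta genes and from 132 (Pcdhgb8) to 8620 (Pcdhgc3) among gamma genes. The median standard error of the paired log2 fold change in shKdm6b against control was 0.34 for alpha, 0.22 for beta and 0.13 for gamma genes.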

How the data were processed

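The deposited table holds 1 column of estimated counts per library and 1 entry per gene symbol; its name gives salmon, and the submitters' processing notes name mm10. Settings, version and annotation of salmon were not stated. Estimated counts were rounded to whole numbers. All 20 columns were used, and 0 columns were left over.

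In edgeR 4.0.16 under R 4.3.3, filterByExpr retained 57 of 58 members and 15284 of 24411 genes in all. Libraries were scaled with TMM, and the 6 pairs of groups were compared as contrasts of 1 fit by the two-sided quasi-likelihood test of edgeR with robust dispersions, adjusted over all genes tested by Benjamini-Hochberg, with a threshold of 0.05. The design had no block for the library number; the fit with it (the paired fit) is the alternative. Numbers pair the samples by a check of the data, since no label explains the numbers: deviations from the group mean correlated across genes in all 30 same-numbered pairs (Pearson r 0.361 to 0.881, limit 0.1), against a median of -0.205 for the 120 other pairs, and 20 of 20 libraries correlated best with their own number. Deviations from a group mean sum to 0 within the group, so the negative median of the other pairs follows in part from that. Libraries of a group differed by 27.9 times sampling noise or more (chi-square over its degrees of freedom), which is more than repeat sequencing of 1 library would give. This check cannot tell whether libraries of a group came from the same culture. The block lowered the biological coefficient of variation over all genes to 0.179, against 0.392 without it.

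CPM use TMM-scaled library sizes. Exon structure, length and order came from the GENCODE annotation of GRCm38, with RefSeq names for placing Pcdha10. Same-numbered differences of summed CPM are given as mean ± SD with no test. Values were named by rule: the C-type genes, every member called in either fit, the 3 members of each cluster with the highest CPM, the 2 largest rises and falls in shKdm6b against control, and called genes of 3 lists; others are marked as chosen after seeing values. Members, lists and rules were chosen with earlier results of these data known. Alternatives were other size factors (RLE), no filter on low counts, DESeq2 1.42.0, fits on 2 groups, leaving out libraries, and the replicate block. The fits were tested on simulated data. Intervals cover the spread between libraries.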

Additional observations from a re-analysis of the deposited data

Results flagged for a closer look

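Of 80 sets of 5 values (the named members and cluster sums in each group), 8 held a library that stood apart from the other 4 by Dixon's test, which chance gives for about 1 in 20 sets. Of these 8, 7 were libraries numbered 4 of shKdm6b or control, which were also low in granule neuron markers and high in astrocyte and Bergmann glia markers. In shKdm6b library 4, Pcdhgc3 was at 328.4 CPM (467.2 to 509.1 CPM in the other 4), Pcdhb17 at 9.386 CPM (15.22 to 16.96 CPM) and Pcdhgb7 at 32.02 CPM (47.42 to 53.3 CPM). In control library 4, Pcdhb17 was at 7.973 CPM (15.41 to 17.52 CPM), Pcdhb22 at 8.15 CPM (13.95 to 16.19 CPM), Pcdha1 at 0 CPM (2.713 to 3.744 CPM) and the gamma cluster sum at 791.4 CPM (920.6 to 966.4 CPM). The 8th was Pcdhb17 in active rescue library 2, at 16.98 CPM (13.56 to 14.22 CPM). The part of the marker levels in these values was not tested.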

How the results depend on the processing

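The replicate block raised the members called in shKdm6b against control to 1, against 0 without it. The share of all genes called was 4.14% with the block. The count was 3 with DESeq2 and the block (6.3% of all genes), 4 with only the 2 groups and the block (12.1%), 3 without the libraries numbered 4 and with the block (6.5%), and 2 with numbers 1 to 3 and the block (3.51% of members, against 2.91% of all genes). It was 0 under RLE or no filter with the block, and 0 to 2 when 1 library was left out. DESeq2 with the block called 3 members in active rescue against control; every other setting run for the 5 comparisons with a rescue group called 0. Kdm6b had a log2 fold change of -0.79 without the block and passed the threshold at -0.88 with it, -0.89 with RLE and the block, -0.88 without the filter, -0.90 with DESeq2, -0.82 with 2 groups and -0.58 with numbers 1 to 3, the last 4 with the block too. It missed the threshold without the libraries numbered 4 and with the block, at -0.84 and an edgeR adjusted p of 0.0567. Leaving out 1 library gave -1.02 to -0.63, past the threshold in 5 of 10 cases with the block. The list of other protocadherins had 4 calls with the block and 2 to 4 without 1 library. The lists of regulators and of signalling partners had 0 to 1 call without 1 library (Stag2 without control library 4, Ret without control library 3).

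Signs that turned belonged to members near 0. Pcdhac1 was at 0.09 without the block, and at -0.16 with the block, -0.18 with RLE, -0.16 without the filter, -0.25 with DESeq2, -0.17 with 2 groups and -0.026 with numbers 1 to 3, each with the block. Pcdhb17 was at 0.01, and at -0.043 without the libraries numbered 4 and with the block, at -0.040 without them and the block, a setting chosen after seeing the data, and at -0.0125 with numbers 1 to 3 and the block. With 1 library left out, the log2 fold changes ran from -0.46 to 0.39 for Pcdhac1, -0.20 to 0.34 for Pcdhac2, -0.062 to 0.12 for Pcdhgc3, -0.10 to 0.18 for Pcdhgc5, -0.17 to 0.12 for Pcdhb17, -0.14 to 0.16 for Pcdhb22 and -0.034 to 0.13 for Pcdhgb7. The cause was not tested. Adding Pcdha7-g to Pcdha7, also chosen after seeing the data, left Pcdha7 short of the threshold in both fits.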
